A study of Homo sapiens with 18 samples.

Results

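The Hedgehog pathway genes described here are GLI1, GLI2, GLI3, SMO, PTCH1, SUFU, HHIP, BOC and GAS1. They were taken by name from a table of read counts, and these 9 of 25369 genes in the table were read in all 18 libraries. All 9 were among the 14850 genes that passed the filter on low counts and were tested. Of these genes, GLI3 rose in D425 cells with both hairpins, and GLI2 and SMO rose in D458 cells with both hairpins. PTCH1 fell in D425 with hairpin 8, while no change in GLI1 passed the test in either line.

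Hedgehog signalling starts when a secreted ligand (SHH, IHH or DHH) binds the receptor PTCH1, helped by the co-receptors BOC, CDON and GAS1. Without ligand, PTCH1 keeps the membrane protein SMO silent. SMO, once released, acts at the primary cilium to free the GLI transcription factors from SUFU. GLI2 is the main activator, GLI3 is cleaved to a repressor when the pathway is off, and GLI1 is itself a target gene, as are PTCH1 and the ligand-binding antagonist HHIP. Hedgehog signalling drives division of granule cell progenitors in the developing cerebellum. It is overactive in the SHH subgroup of medulloblastoma, and not in Group 3, the subgroup to which the labels assign the cells studied here.

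PolyA RNA was sequenced from D425 and D458, each of them a single human medulloblastoma cell line, in which short hairpin RNAs (shRNAs) had been directed at EYA2. This gene encodes a transcriptional coactivator and phosphatase. The groups were D425 with hairpin 6, D425 with hairpin 8, D425 with a non-targeting control hairpin, D458 with hairpin 7, D458 with hairpin 8 and D458 with the control hairpin, each with 3 biological replicates. All groups shared puromycin at 1 µg/mL for 48 h, a sort of the top 10% of cells by the zsGreen carried on the construct, and 24 h of recovery. Hairpin 8 was thus the only one used in both lines, and both comparisons within a line used the same 3 controls.

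The libraries held 21260369 to 31552051 counts. Levels are CPM (counts scaled to a common library size, with TMM factors), with the SD over 3 libraries. Changes are log2 fold changes of hairpin over control with their standard error. A change was called where the adjusted p (Benjamini-Hochberg, over the 14850 genes) was under 0.05 in edgeR's quasi-likelihood test, which gave every adjusted p below unless another tool is named. EYA2 had 9.72 to 15.1 CPM with hairpin 6 and 12 to 17.5 CPM with hairpin 8 in D425, against 43.6, 24.6 and 15.5 CPM in D425 controls, so that hairpin 8 overlapped the controls. Both falls were called (log2 changes of -1.24 ± 0.27 and -0.98 ± 0.27, adjusted p = 0.00693 and 0.017). Without D425 control replicate 1 the changes were -0.76 and -0.51 (adjusted p = 0.0184 and 0.0865). Neither passed without replicate 2 (adjusted p = 0.154 and 0.168), hairpin 6 did not without replicate 3 (adjusted p = 0.0542), and hairpin 8 did not without its own replicate 2 or 3 (adjusted p = 0.0571 and 0.0601). The 100 tested genes nearest EYA2 on chromosome 20 had median changes of -0.31 and -0.35. In D458 controls, EYA2 averaged 70.3 ± 3.16 CPM. In that line it averaged 48.1 ± 3.43 CPM with hairpin 7 and 20.3 ± 2.77 CPM with hairpin 8. The fall was called with hairpin 8 and not with hairpin 7 (adjusted p = 0.000506 and 0.137). Every library with hairpin 7 (45.1 to 51.9 CPM) nevertheless lay below every D458 control (67.5 to 73.7 CPM). The hairpin 7 change of -0.55 was called with replicate number as a block (adjusted p = 0.00692). It was also called when D425 was left out of the fit (adjusted p = 0.00819). No other alternative called it, with DESeq2 at an adjusted p of 0.129. Photoreceptor and Group 3 genes (MYC, OTX2, NPR3, IMPG2, GABRA5, CRX and NRL) summed to 4260 to 6800 CPM in every library, although NPR3 among them had 0 to 6 counts per group. Of 5 SHH-subgroup genes, ATOH1 and SFRP1 had at most 7 counts per group. The other members of that list were expressed, GAB1 at group means of 8.61 to 26.7 CPM, PDLIM3 at 17.2 to 113 CPM, and EYA1 at 27.8 to 40 CPM in D458 and at most 0.158 CPM in D425.

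Among the 9 Hedgehog genes, the calls in D425 numbered 1 with hairpin 6 (GLI3, higher) and 2 with hairpin 8 (GLI3 higher, PTCH1 lower). Of all genes tested, 14.1% were called with hairpin 6 (7.31% higher and 6.84% lower) and 21.7% with hairpin 8 (11.6% higher and 10.1% lower). The calls in D458 were 2 with hairpin 7 and 2 with hairpin 8, GLI2 and SMO each time, all higher. There, 22.6% of all genes were called with hairpin 7 (11.5% higher and 11.1% lower) and 23.2% with hairpin 8 (12.1% higher and 11.1% lower). The share of the 9 genes that was called is thus near that of all genes. The median log2 change of the 9 genes was 0.10 with hairpin 6 and 0.26 with hairpin 8 in D425, beside medians of 0.01 and 0.02 over all genes. It was 0.79 with hairpin 7 and 0.52 with hairpin 8 in D458, beside a median of 0.01 over all genes in both. Between the 2 hairpins of a line, none of the 9 genes was called by edgeR or DESeq2 (unadjusted p under 0.05 for 0 of 9 in either line). That comparison called 0% of all genes by edgeR in both lines. An unadjusted p under 0.05 was held by 519 genes in D425 (3.49%) and 274 in D458 (1.85%), and DESeq2 called 6 and 4. In D458, edgeR did not call EYA2 itself. EYA2 had 18.2 to 23.5 CPM with hairpin 8 and 45.1 to 51.9 CPM with hairpin 7. Its log2 difference was -1.24 ± 0.27 (unadjusted p = 0.000279 by edgeR). The absence of calls between hairpins thus does not show that the hairpins acted alike.

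**Figure D1:**
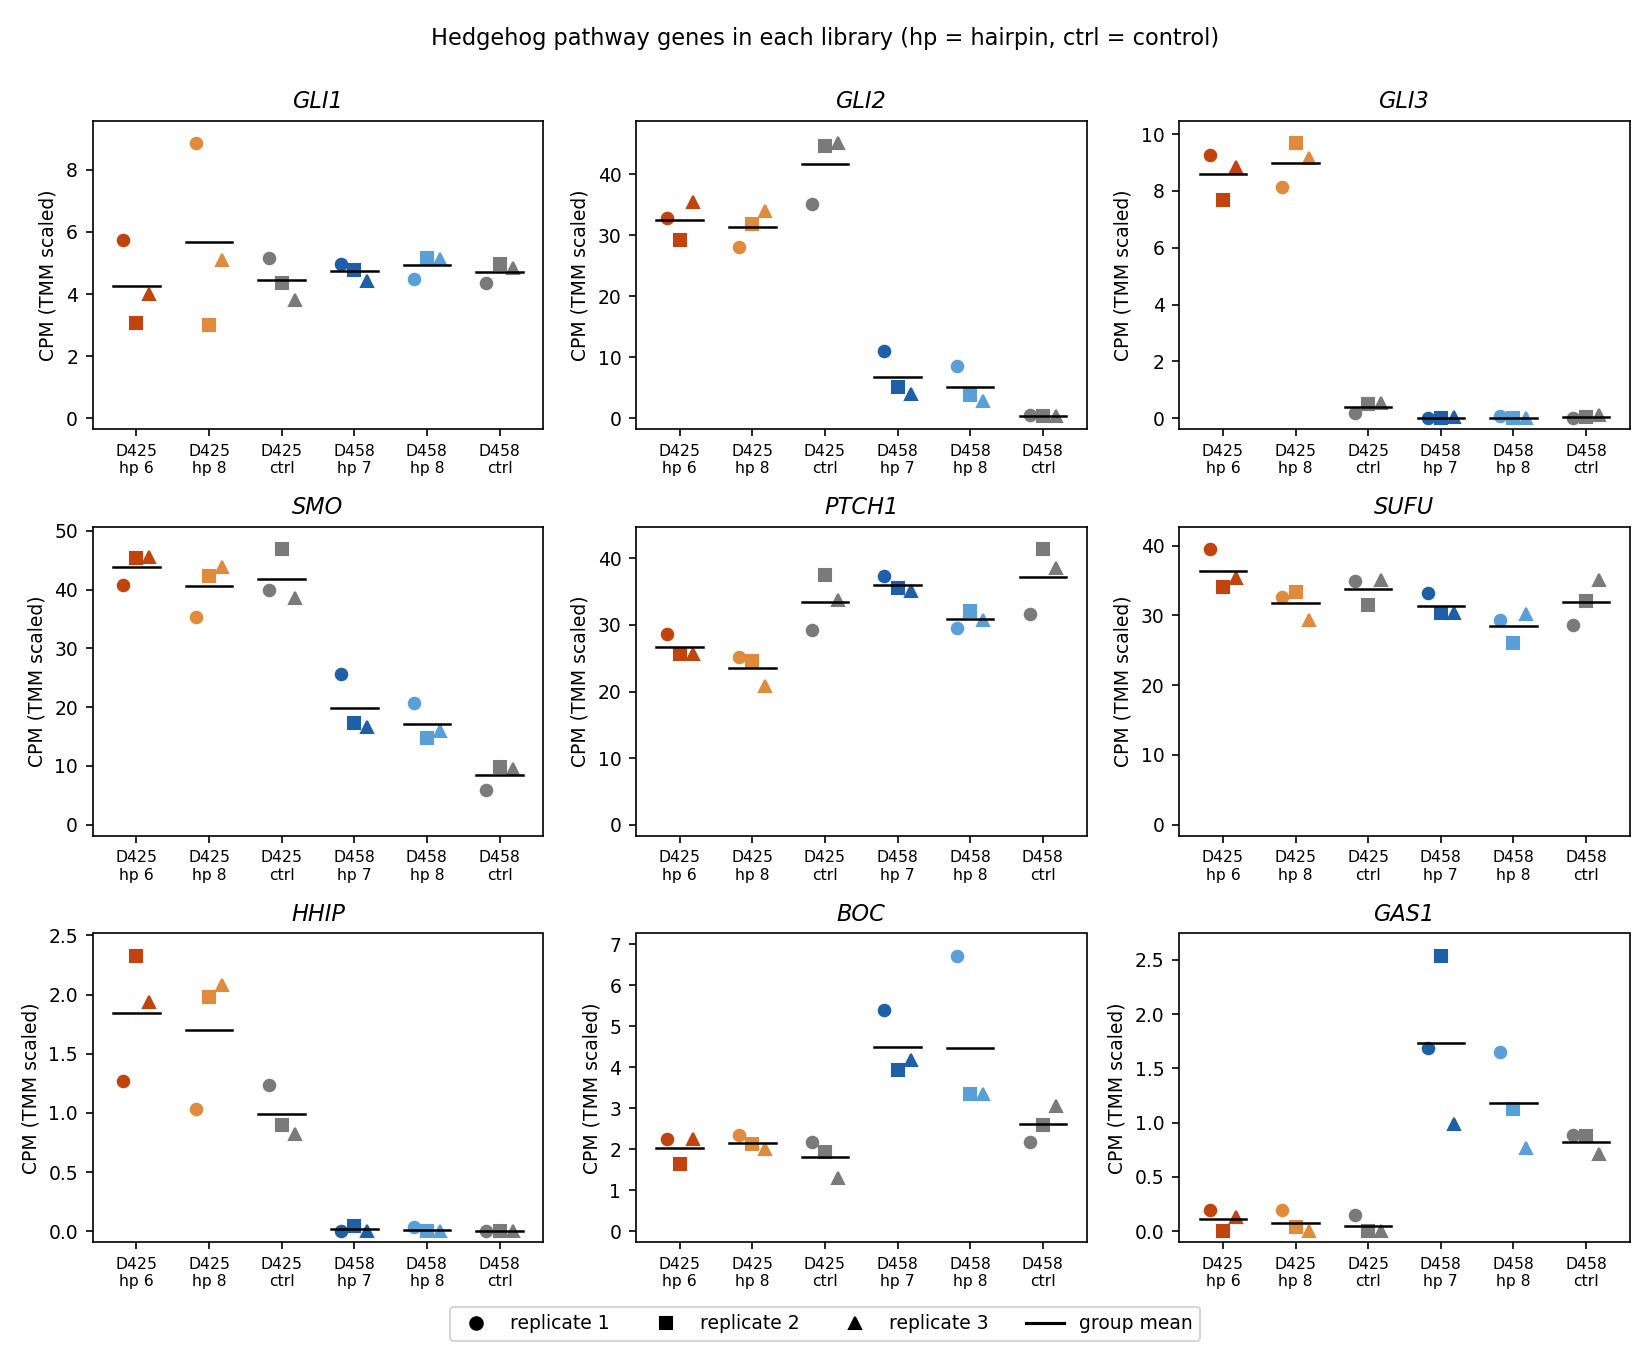
TMM-scaled CPM of the 9 Hedgehog genes (y axes differ between panels) in each of the 18 libraries, by group, with the symbol showing the replicate number and the line the group mean of 3 libraries. GLI3 is high only in the D425 hairpin libraries (means 8.60 and 8.99 CPM), and GLI2 and SMO are higher in all D458 hairpin libraries than in all D458 control libraries.

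With the control hairpin, the lines differed in which Hedgehog genes they expressed. To compare levels between genes, CPM was divided by the length of the principal transcript in kb. In D458 controls the order was SUFU (6.38 CPM per kb), PTCH1 (4.62), SMO (2.25), GLI1 (1.31), BOC (0.56), GAS1 (0.292), GLI2 (0.0613), GLI3 (0.00707) and HHIP (0 counts). In D425 controls the order was SMO (11.2 CPM per kb), SUFU (6.76), GLI2 (6.13), PTCH1 (4.16), GLI1 (1.23), BOC (0.39), HHIP (0.0981), GLI3 (0.049) and GAS1 (0.0173). The libraries of neighbouring genes in this order overlapped for SUFU and GLI2 and for GLI3 and GAS1 in D425, and for GLI3 and HHIP in D458. For all other neighbours in either order the ranges of the 3 libraries were apart.

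Of the 9 genes, 5 differed between D458 and D425 controls (1 higher, 4 lower), beside 62.8% of all genes called (31.4% in each direction). GLI2 had 0.533, 0.342 and 0.375 CPM in D458 controls, against 35.1, 44.7 and 45.2 CPM in D425 controls, a log2 difference of -6.62 ± 0.48 (adjusted p = 8.44e-09). SMO had 5.95 to 9.82 CPM in D458 controls, against 38.5 to 46.9 CPM in D425 controls, a log2 difference of -2.31 ± 0.20 (adjusted p = 3.41e-08). For both genes every D458 control library lay below every D425 control library. The control groups of 69.4% of all genes did not overlap.

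HHIP had 0 counts in all D458 controls against 0.988 ± 0.224 CPM in D425 controls, and was thus at least 7.32-fold lower in D458 with 3 counts per library as the floor. GLI3 totalled 4 counts over D458 controls against 35 over D425 controls and was called lower (adjusted p = 0.0026, lost without replicate 2 at adjusted p = 0.0621), with too few counts in D458 for a fold. GAS1, a membrane co-receptor of the ligands, went the other way, with 0.709 to 0.888 CPM in D458 controls against 4, 0 and 0 counts in D425 controls. It was called higher (55 counts in all against 4, adjusted p = 0.00132), again with too few counts for a fold. GLI1, PTCH1, SUFU and BOC were not called, with log2 differences of 0.09, 0.15, -0.08 and 0.53 and the highest standard error 0.30.

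The promoter windows of the genes that moved are shown here, because GLI factors bind a known DNA motif and PTCH1 is a target of these factors in many cells. Windows run from 250 bases before to 50 bases after a gene start and come from RefSeq (GRCh38.p14), in which 7 of the 9 genes matched, with 13 windows. GLI1 and GLI3 had no entry. The letters TGGGTGGTC, the core of the GLI binding motif, were searched on both strands. They were present in 1 of the 13 windows, a PTCH1 start at chr9:95509217-95509516 on the minus strand, beginning 172 bases before the start. Among all windows of this length, 83 of 35116 (0.236%) held the letters. The window is printed on the gene's strand with the match in capitals.
PTCH1: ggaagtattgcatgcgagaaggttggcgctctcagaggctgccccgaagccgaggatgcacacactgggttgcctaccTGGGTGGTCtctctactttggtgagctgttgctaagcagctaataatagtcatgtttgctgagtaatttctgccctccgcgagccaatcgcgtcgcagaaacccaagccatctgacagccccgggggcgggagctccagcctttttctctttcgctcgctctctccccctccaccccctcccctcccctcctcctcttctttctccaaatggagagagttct

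GLI2 has 2 windows and SMO has 1, all on the plus strand and without the motif letters. They are shown because these genes rose together in D458. The GLI2 windows lie at chr2:120735618-120735917 (GC content 68.3%, 31 CpG dinucleotides) and chr2:120792031-120792330 (46.3%, 7 CpG), and the SMO window at chr7:129188383-129188682 (72%, 29 CpG). The median over all windows was 58.7% GC and 14 CpG.
GLI2, first start: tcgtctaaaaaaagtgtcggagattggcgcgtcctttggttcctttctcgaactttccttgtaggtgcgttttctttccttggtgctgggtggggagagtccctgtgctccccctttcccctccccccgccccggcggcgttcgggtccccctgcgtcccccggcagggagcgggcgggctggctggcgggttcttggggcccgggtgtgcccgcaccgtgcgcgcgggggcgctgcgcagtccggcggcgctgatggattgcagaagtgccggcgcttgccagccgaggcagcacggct
GLI2, second start: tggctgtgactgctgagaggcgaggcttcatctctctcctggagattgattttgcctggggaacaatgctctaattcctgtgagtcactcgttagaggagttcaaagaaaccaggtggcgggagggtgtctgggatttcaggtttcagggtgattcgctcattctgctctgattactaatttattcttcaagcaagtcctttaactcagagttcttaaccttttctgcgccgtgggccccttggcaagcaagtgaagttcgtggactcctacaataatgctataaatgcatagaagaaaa
SMO: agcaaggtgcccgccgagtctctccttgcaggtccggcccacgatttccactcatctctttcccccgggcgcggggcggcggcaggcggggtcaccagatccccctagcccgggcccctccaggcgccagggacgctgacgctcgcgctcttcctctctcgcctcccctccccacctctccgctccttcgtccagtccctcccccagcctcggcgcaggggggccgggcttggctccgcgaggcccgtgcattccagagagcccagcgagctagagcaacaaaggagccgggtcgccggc
The first GLI2 window and the SMO window are rich in CpG, the second GLI2 window is not. A match or its absence describes these letters only.

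The co-receptors BOC and GAS1 sit at the top of the pathway, and neither passed the test with any hairpin. BOC, an immunoglobulin superfamily protein that binds the ligands with PTCH1, had 5.39, 3.93 and 4.17 CPM with hairpin 7 and 6.73, 3.35 and 3.36 CPM with hairpin 8 in D458, against 2.18, 2.59 and 3.05 CPM in D458 controls. Every D458 hairpin library was above every D458 control library, and 43.1% of all genes did not overlap between hairpin 7 and control and 41.5% between hairpin 8 and control. The changes were 0.79 ± 0.28 (adjusted p = 0.0532) and 0.78 ± 0.28 (adjusted p = 0.0527). With replicate number as a block the adjusted p was 0.0253 and 0.0312, and with DESeq2 it was 0.0368 and 0.0373. Replicate 1 showed the largest differences of the same-numbered pairs (1.27 with hairpin 7 and 1.59 with hairpin 8).

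In D425, BOC averaged 2.04 CPM with hairpin 6 and 2.16 CPM with hairpin 8, against 1.81 CPM in controls (adjusted p = 0.745 and 0.553). BOC overlaps CFAP44 (WDR52 in the table) on the opposite strand, and the strand setting of the counting is not given in the sources used here, so that reads of the pair cannot be told apart. WDR52 averaged 8.11 CPM with hairpin 7 and 8.76 CPM with hairpin 8 in D458, against 8.75 CPM in D458 controls.

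GAS1 had 1.74 ± 0.779 CPM with hairpin 7 and 1.18 ± 0.447 CPM with hairpin 8 in D458, against 0.826 ± 0.101 CPM in D458 controls. All libraries with hairpin 7 lay above the controls (43.1% of all genes did not overlap), and those with hairpin 8 overlapped them. The changes of 1.07 ± 0.64 and 0.52 ± 0.64 did not pass (adjusted p = 0.231 and 0.582). In D425, GAS1 totalled 9 counts with hairpin 6, 7 with hairpin 8 and 4 in controls, too few for a fold.

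SMO, the seven-pass membrane protein that PTCH1 holds in check, behaved differently in the lines. It had 25.7, 17.3 and 16.6 CPM with hairpin 7 and 20.7, 14.8 and 15.9 CPM with hairpin 8 in D458, against 5.95, 9.82 and 9.47 CPM in D458 controls. All 6 hairpin libraries lay above all 3 controls, where 43.1% of all genes did not overlap with hairpin 7 and 41.5% with hairpin 8. SMO rose by 1.24 ± 0.20 with hairpin 7 (2.36-fold, adjusted p = 0.000682) and 1.03 ± 0.20 with hairpin 8 (2.04-fold, adjusted p = 0.00222). Between hairpin 8 and hairpin 7 the difference was -0.21, with a 95% interval from -0.61 to 0.19 (adjusted p = 1).

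The SMO control of replicate 1 was the lowest of the D458 controls, and both hairpin libraries of that number were the highest of their groups. The same-numbered differences were thus 2.09 and 1.78 in replicate 1 with hairpins 7 and 8, and 0.59 to 0.81 in replicates 2 and 3. The rise was called in each of the 15 alternatives with either hairpin. Without replicate 1 it was 0.82 with hairpin 7 and 0.67 with hairpin 8.

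In D425, SMO had 40.8 to 45.5 CPM with hairpin 6 and 35.4 to 43.9 CPM with hairpin 8, against 38.5 to 46.9 CPM in controls. The groups overlapped, and the changes were 0.07 ± 0.18 and -0.04 ± 0.18 (adjusted p = 0.846 and 0.896, 95% intervals from -0.31 to 0.45 and from -0.43 to 0.34). The hairpin 8 effect was larger in D458 than in D425 by 1.07 ± 0.27 (adjusted p = 0.0171). That difference lost its call without replicate 2 (1.26, adjusted p = 0.143) or without replicate 3 (1.36, adjusted p = 0.12). Even after its rise, SMO in D458 hairpin libraries stayed below every D425 library.

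SUFU binds GLI proteins and holds them in the cytoplasm, and no change of it passed the test. It averaged 36.3 ± 2.85 CPM with hairpin 6 and 31.8 ± 2.14 CPM with hairpin 8 in D425, against 33.8 ± 1.96 CPM in D425 controls. It averaged 31.3 ± 1.66 CPM with hairpin 7 and 28.6 ± 2.23 CPM with hairpin 8 in D458, against 31.9 ± 3.24 CPM in D458 controls. Hairpin and control libraries overlapped in all 4 comparisons. The changes ran from -0.16 to 0.10 with a standard error of 0.10, and the lowest adjusted p was 0.248.

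**Figure D2:**
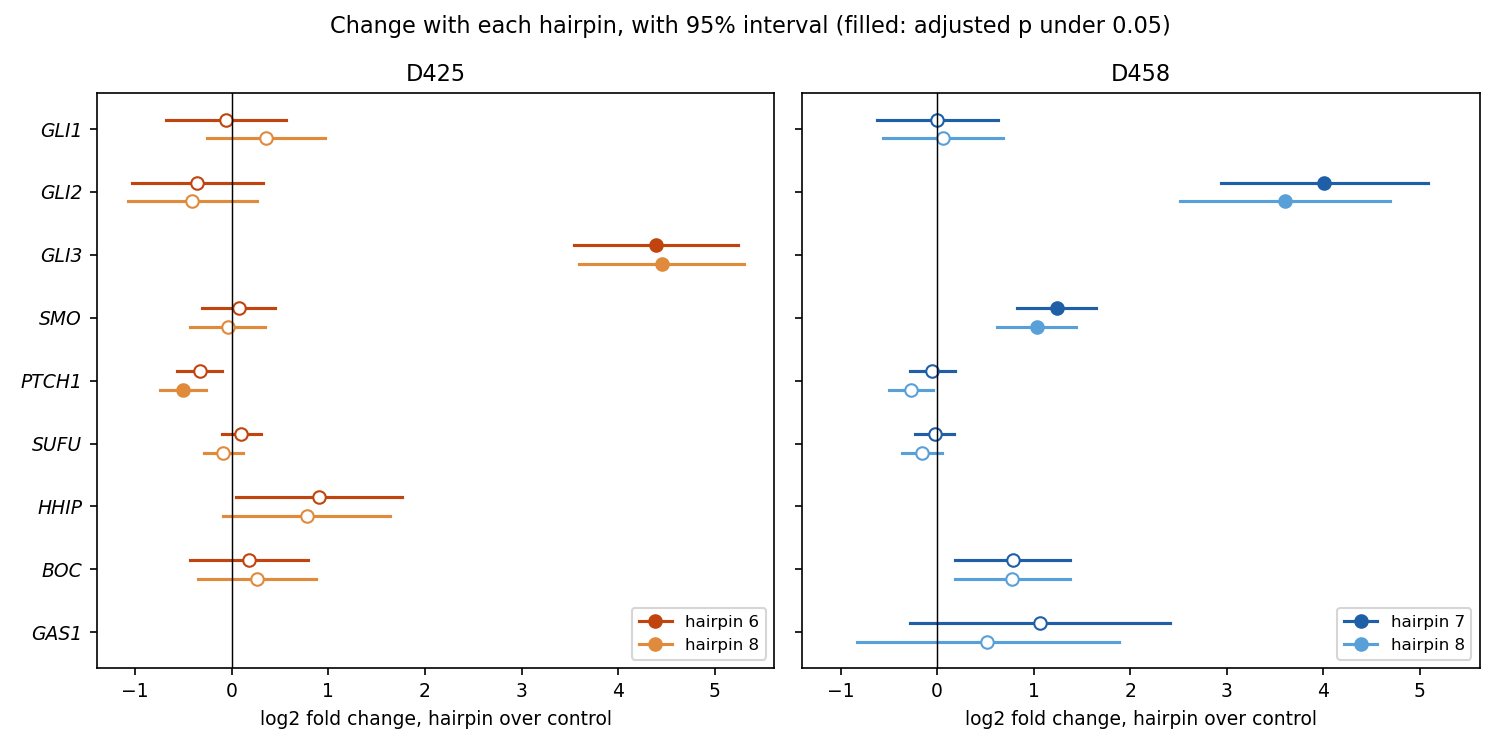
Log2 fold change of hairpin over control for each Hedgehog gene in D425 (left) and D458 (right), with 95% intervals over 3 libraries per group. Filled points passed an adjusted p of 0.05, which holds for GLI3 and, with hairpin 8, PTCH1 in D425, and for GLI2 and SMO in D458. Genes with at most 9 counts in every group of a line (GAS1 in D425, GLI3 and HHIP in D458) have no point there.

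The largest changes were those of GLI2 and GLI3, in different lines. GLI2, the main transcriptional activator of the pathway, had 11.1, 5.13 and 4.03 CPM with hairpin 7 and 8.61, 3.78 and 2.89 CPM with hairpin 8 in D458, against 0.533, 0.342 and 0.375 CPM in D458 controls. The counts behind these levels summed to 468 and 384 in the hairpin groups and to 28 in the controls. The lowest hairpin library was still above the highest control, where 43.1% of all genes did not overlap with hairpin 7 and 41.5% with hairpin 8. GLI2 rose by 4.01 ± 0.50 with hairpin 7 (adjusted p = 0.000135, 95% interval from 2.94 to 5.08) and by 3.60 ± 0.51 with hairpin 8 (adjusted p = 0.000345, 95% interval from 2.52 to 4.69).

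Replicate 1 was again the highest of each D458 hairpin group and widened the spread, to 6.77 ± 3.83 CPM with hairpin 7 and 5.09 ± 3.08 CPM with hairpin 8. The same-numbered differences in replicates 1, 2 and 3 were 4.17, 3.57 and 3.17 with hairpin 7 and 3.80, 3.14 and 2.70 with hairpin 8, so that every pair was higher. The rise was called in all 15 alternatives with each hairpin, and leaving out libraries kept it between 3.45 and 4.30 with hairpin 7 and between 3.00 and 3.91 with hairpin 8. The 100 nearest tested genes on chromosome 2 had a median change of 0.04 with hairpin 7 and 0.06 with hairpin 8.

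In D425, GLI2 had 32.9, 29.3 and 35.5 CPM with hairpin 6 and 28.1, 31.9 and 34.0 CPM with hairpin 8, against 35.1, 44.7 and 45.2 CPM in controls. The libraries with hairpin 8 all lay below the controls, and 1 library with hairpin 6 overlapped them. Of all genes, 35.8% did not overlap between hairpin 6 and control and 35.9% between hairpin 8 and control. The changes of -0.36 ± 0.32 and -0.41 ± 0.32 did not pass (adjusted p = 0.512 and 0.382). With replicate number as a block they did (adjusted p = 0.0144 and 0.00414), and every same-numbered pair was lower, by 0.09 to 0.61. In a fit of the D425 libraries alone, hairpin 8 passed (adjusted p = 0.0337). The difference between the lines in the hairpin 8 effect was 4.02 ± 0.61 (adjusted p = 0.000902), and 0.076 was its highest adjusted p, without replicate 2.

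GLI3, whose cleaved form represses target genes when the pathway is off, had 9.26, 7.69 and 8.85 CPM with hairpin 6 and 8.12, 9.70 and 9.16 CPM with hairpin 8 in D425, against 0.183, 0.485 and 0.54 CPM in controls. The counts summed to 697, 778 and 35. The hairpin groups were tight and far from the controls, with fitted changes of 4.39 ± 0.40 and 4.45 ± 0.40 (adjusted p = 1.09e-05 and 7.22e-06). The same-numbered differences ran from 3.80 to 5.19, with replicate 1 the largest for both hairpins because its control was the lowest. The rise was called in each of the 15 alternatives with either hairpin. The 100 nearest tested genes on chromosome 7 had median changes of 0.10 and 0.07.

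In D458, GLI3 stayed near 0, with 1 count with hairpin 7, 2 with hairpin 8 and 4 in controls. No fold is given at such counts. The test of a difference between the lines in the hairpin 8 effect passed (adjusted p = 0.0164), but its size cannot be given, because both D458 groups rested on these few counts. The call was lost without replicate 2 (adjusted p = 0.199), without replicate 3 (adjusted p = 0.391) and without D458 control replicate 3 (adjusted p = 0.25). Of the 9 genes, 3 thus passed the test of a difference between lines, beside 11.8% of all genes (6.19% upward and 5.65% downward in D458). GLI2 and SMO had the higher effect in D458. The GLI3 result rests on its rise in D425 and shows no fall in D458. The D458 change of GLI3 with hairpin 8 was not called (adjusted p = 0.541). Without replicate 2, 0 of the 9 genes and 0.498% of all genes were called, and without replicate 3, 1 of the 9 (GLI2) and 0.681% of all genes.

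**Figure D3:**
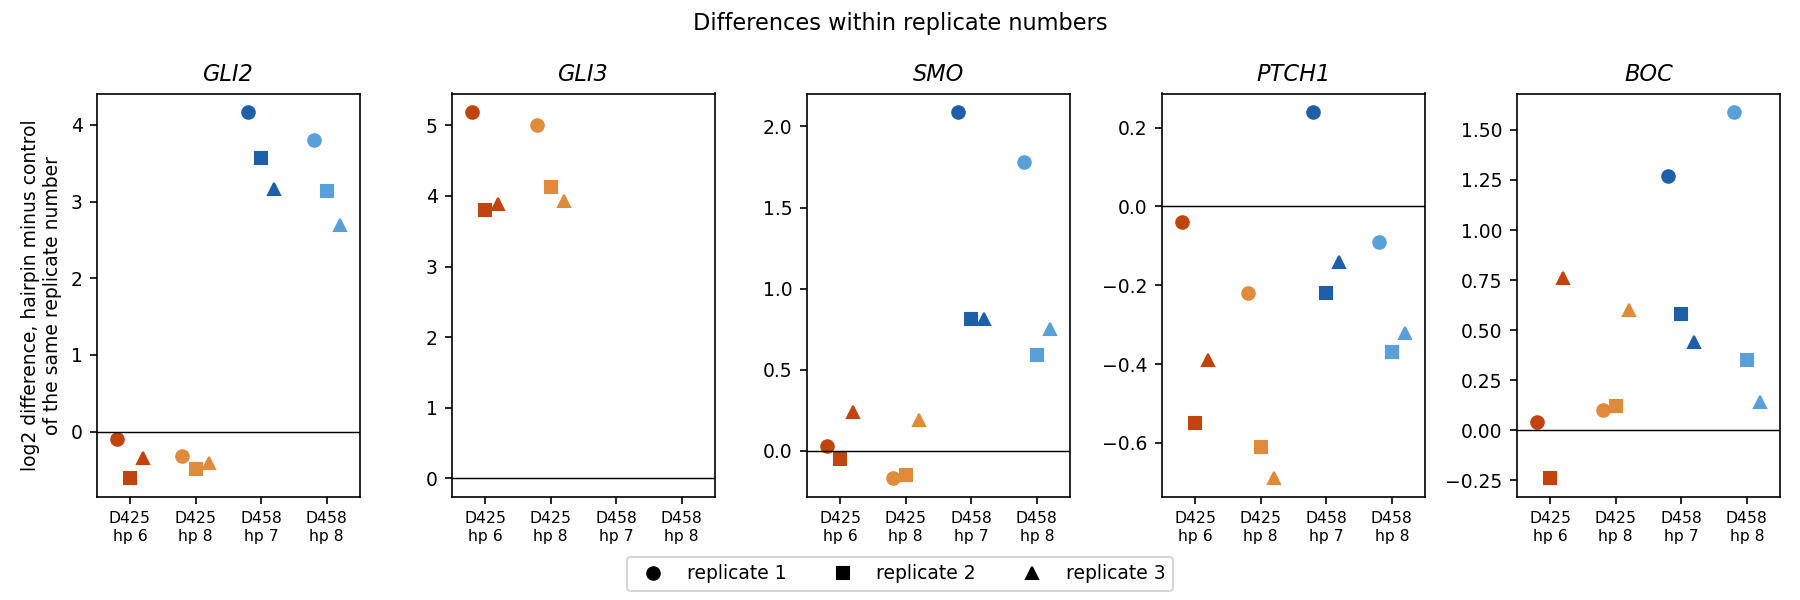
Log2 difference between each hairpin library and the control library of the same replicate number (y axes differ between panels) for GLI2, GLI3, SMO, PTCH1 and BOC, with 3 pairs per comparison and the zero line drawn. Replicate 1 gives the largest GLI2, SMO and BOC differences in D458 (4.17, 2.09 and 1.27 with hairpin 7), and all pairs of GLI3 in D425 lie at 3.80 or above. GLI3 in D458 is left out because its counts are near 0.

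The GLI genes were also read as a sum, in CPM per kb of transcript, to see which member supplied the RNA. In D458 the sum was 1.83 to 3.02 with hairpin 7 and 1.85 to 2.51 with hairpin 8, against 1.28 to 1.44 in controls. GLI2 made up 32.5 to 54.3% of it with hairpin 7 and 23 to 50.4% with hairpin 8, against 3.5 to 6.11% in controls, where GLI1 made up 93.9 to 96.1%. In D425 the sum was 6.09 to 7.56 with hairpin 6 and 6.70 to 7.59 with hairpin 8, against 6.62 to 7.85 in controls, so that the groups overlapped. GLI3 made up 14.6 to 15.4% of it with hairpin 6 and 13 to 17.6% with hairpin 8, against 0.337 to 0.846% in controls. GLI2 gave the largest share in every D425 library.

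**Figure D4:**
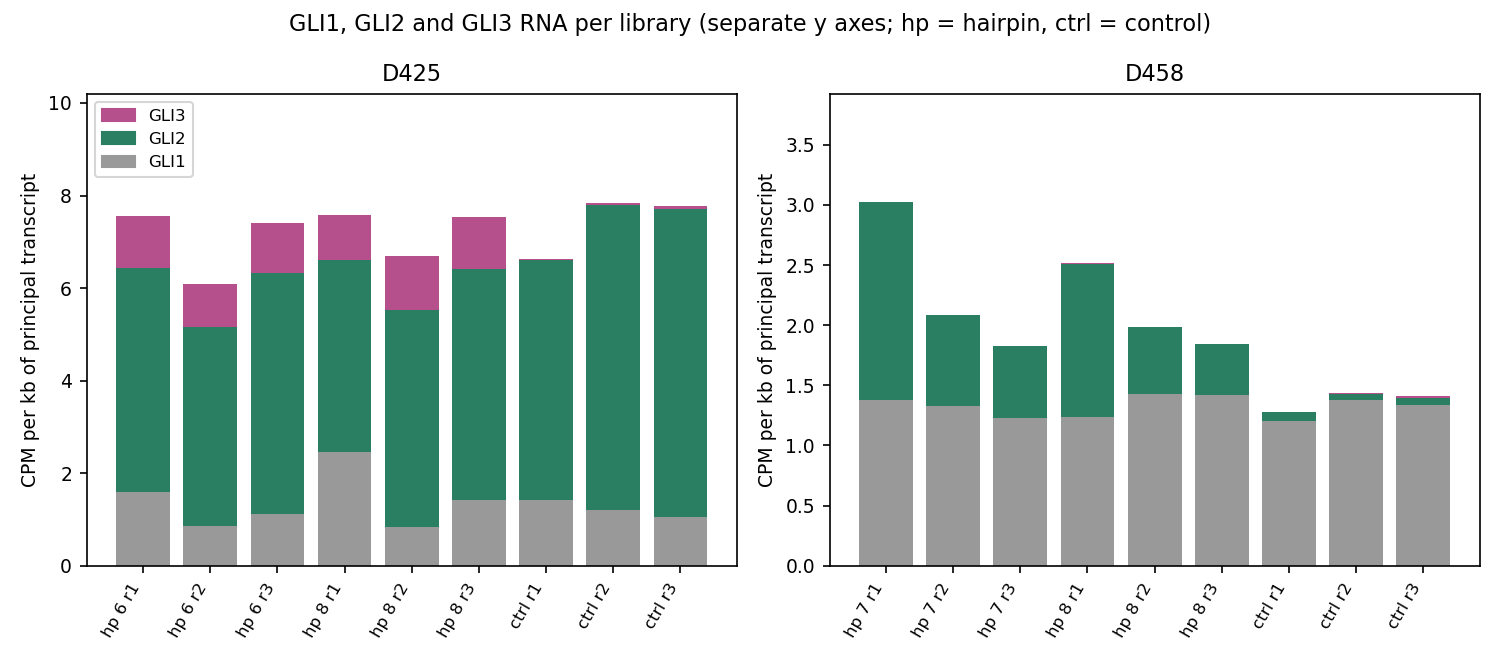
CPM per kb of the principal transcript of GLI1, GLI2 and GLI3, stacked for each library of D425 (left) and D458 (right; y axes differ, both from 0). GLI3 is seen in the 6 hairpin libraries of D425 (13 to 17.6% of the sum), and GLI2 is added to a steady GLI1 in the 6 hairpin libraries of D458.

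The genes that Hedgehog signalling itself turns on were read next. GLI1, a transcriptional activator often taken as a readout of the pathway, had 4.98, 4.79 and 4.43 CPM with hairpin 7 and 4.47, 5.17 and 5.14 CPM with hairpin 8 in D458, against 4.35, 4.98 and 4.84 CPM in controls. These groups overlapped throughout, with changes of 0.00 ± 0.30 and 0.06 ± 0.30 (adjusted p = 1 and 0.905, 95% intervals from -0.62 to 0.63 and from -0.56 to 0.68). In D425 the libraries had 5.74, 3.07 and 4.01 CPM with hairpin 6 and 8.88, 3.00 and 5.11 CPM with hairpin 8, against 5.16, 4.36 and 3.81 CPM in controls. The changes were -0.06 ± 0.29 and 0.35 ± 0.29 (adjusted p = 0.934 and 0.415), and replicate 1 with hairpin 8 stood above the others.

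GLI1 overlaps ARHGAP9 on the opposite strand, and its counts are uncertain for that reason. ARHGAP9 averaged 1.39 CPM with hairpin 6 and 1.96 CPM with hairpin 8 in D425, against 0.755 CPM in controls, and none of its changes passed (adjusted p = 0.27 and 0.0546). In D458 it averaged 2.81 CPM with hairpin 7 and 3.38 CPM with hairpin 8, against 1.38 CPM in controls (adjusted p = 0.126 and 0.0579).

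PTCH1, the receptor and at the same time a target that restrains the pathway, had 28.6, 25.6 and 25.7 CPM with hairpin 6 and 25.2, 24.6 and 20.9 CPM with hairpin 8 in D425, against 29.3, 37.5 and 33.7 CPM in controls. All hairpin libraries lay below all controls, where 35.8% of all genes did not overlap with hairpin 6 and 35.9% with hairpin 8. PTCH1 fell by 0.51 on the log2 scale with hairpin 8 (SE 0.11, adjusted p = 0.00418), and its change of -0.33 ± 0.11 with hairpin 6 did not pass (adjusted p = 0.0539). The call with hairpin 8 was lost without replicate 2 (-0.45, adjusted p = 0.0986) and without replicate 3 (-0.43, adjusted p = 0.175). Hairpin 6 passed with replicate number as a block (adjusted p = 0.0243), with DESeq2 (adjusted p = 0.0354) and without D425 control replicate 1 (-0.42, adjusted p = 0.0173).

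PTCH1 lies on chromosome 9, whose genes were lower on median in the D425 hairpin libraries. The 396 genes of that chromosome averaging at least 8 CPM had a median change of -0.37 with hairpin 6 and -0.38 with hairpin 8, and the 100 nearest PTCH1 had -0.40 and -0.44, beside -0.01 and -0.02 over all genes at that level. The change of PTCH1 was thus of the size of its neighbours' median. The part of a chromosome-wide shift in it was not tested.

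In D458, PTCH1 had 37.4, 35.5 and 35.1 CPM with hairpin 7 and 29.6, 32.1 and 30.8 CPM with hairpin 8, against 31.6, 41.4 and 38.5 CPM in controls. Both groups overlapped the controls. The changes were -0.05 ± 0.11 and -0.27 ± 0.11 (adjusted p = 0.788 and 0.0854), beside neighbour medians of -0.01 and -0.03. With hairpin 8 it passed without replicate 1 (-0.35, adjusted p = 0.0376) and without D458 control replicate 1 (-0.36, adjusted p = 0.0425).

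HHIP, a membrane-bound decoy that binds the ligands, had 1.27, 2.33 and 1.94 CPM with hairpin 6 and 1.03, 1.98 and 2.08 CPM with hairpin 8 in D425, against 1.24, 0.895 and 0.826 CPM in controls. All libraries with hairpin 6 were above the controls (35.8% of all genes did not overlap), and replicate 1 with hairpin 8 lay among the controls. The changes of 0.90 ± 0.40 and 0.78 ± 0.40 did not pass (adjusted p = 0.161 and 0.188). They passed without replicate 1 (1.31, adjusted p = 0.0172, and 1.24, adjusted p = 0.0194). HHIP-AS1 overlaps HHIP on the opposite strand and averaged 1.21 and 1.24 CPM with hairpins 6 and 8, against 1.25 CPM in controls. In D458, HHIP had 1 count with hairpin 7, 1 with hairpin 8 and 0 in controls.

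**Figure D5:**
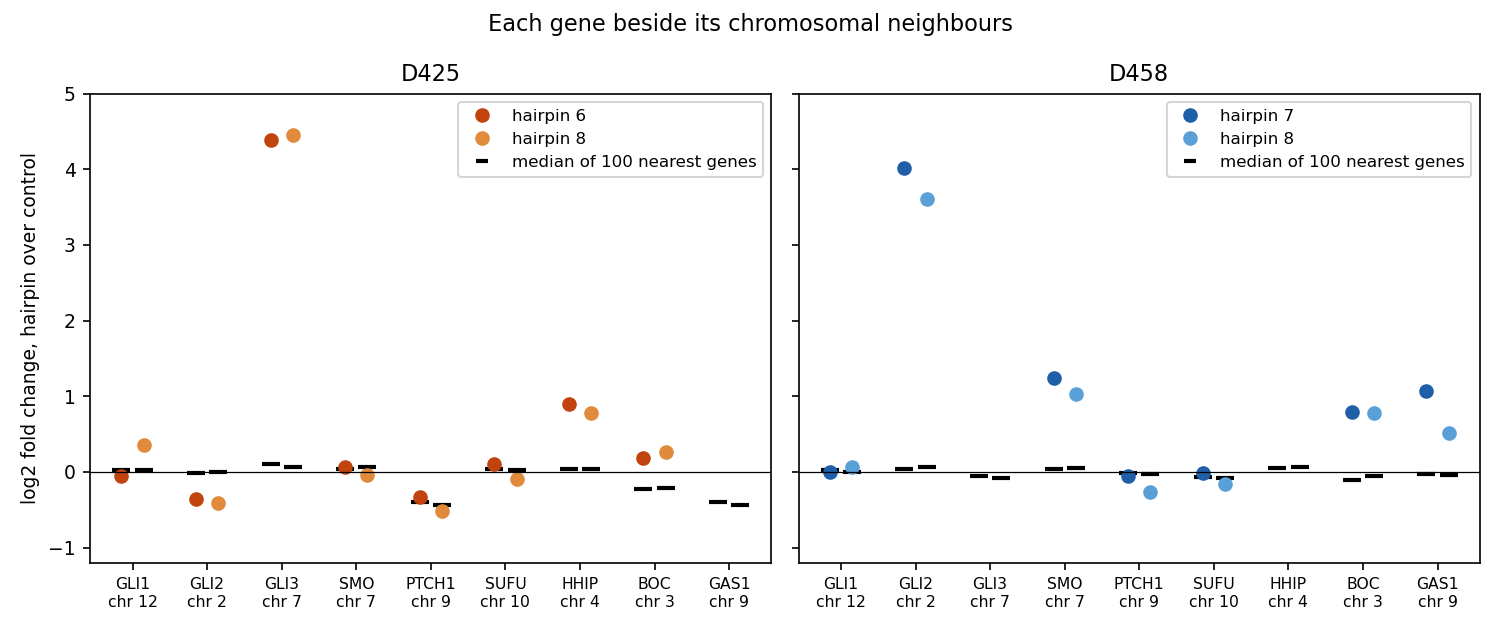
Log2 fold change of hairpin over control for each Hedgehog gene (points) and the median of its 100 nearest tested genes averaging at least 8 CPM (bars), in D425 (left) and D458 (right). PTCH1 in D425 lies at the level of its neighbours (medians -0.40 and -0.44), whereas GLI3 in D425 and GLI2 and SMO in D458 lie far above theirs, which are between 0.04 and 0.10.

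The rest of the pathway was read through lists of genes from general knowledge. Medians of these lists are given with hairpins 6 and 8 in D425 and 7 and 8 in D458, and stand beside medians of 0.01 to 0.02 over all genes. The calls in each list stand beside 14.1% and 21.7% of all genes called in D425, and 22.6% and 23.2% in D458. Of 9 genes for ligands and their release, 5 passed the filter, with medians of 0.03 and 0.48 in D425 and 0.55 and 0.52 in D458. In each of the 4 comparisons 1 rose. The ligand genes SHH, IHH and DHH had 0 to 16 counts in any group, the highest being SHH with hairpin 8 in D425, where all 16 counts came from 1 of the 3 libraries (0.532 CPM), against 1 count in D425 controls. DISP1, which releases the lipid-bearing ligand from cells, rose in D425 with hairpin 6 (1.49 ± 0.35, adjusted p = 0.00902) and hairpin 8 (1.35 ± 0.35, adjusted p = 0.0116), at 1.46 and 1.32 CPM against 0.517 CPM in controls. In D458, SCUBE3, a secreted protein of the family that helps ligand release, rose with hairpin 7 (adjusted p = 0.0238), with 29 counts against 4 in controls. It had 19 counts with hairpin 8 and was not called there. HHAT, which attaches palmitate to the ligands, rose with hairpin 8 in D458 (0.68 ± 0.22, adjusted p = 0.0352). It averaged 28.8 CPM with hairpin 8 and 26.2 CPM with hairpin 7, against 18 CPM in D458 controls. With hairpin 7 it was not called. In D425 it averaged 12.4 CPM with each hairpin, against 16.4 CPM in controls.

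Of 7 further receptors and co-receptors, 1 fell with each hairpin in D425, 1 rose with hairpin 7 in D458, and 0 were called with hairpin 8 in D458 by edgeR or DESeq2 (1 at an unadjusted p under 0.05). LRP2, a large endocytic receptor that takes up SHH, averaged 18.7 CPM with hairpin 6 and 22.2 CPM with hairpin 8 in D425, against 75.9 CPM in controls. It fell by 2.02 (SE 0.24, adjusted p = 9.66e-05) and by 1.77 (SE 0.23, adjusted p = 0.000145). CDON, a co-receptor related to BOC, averaged 76.5 CPM with hairpin 7 and 68.5 CPM with hairpin 8 in D458, against 48.6 CPM in controls. Its change passed with hairpin 7 (0.66 ± 0.20, adjusted p = 0.0304) and not with hairpin 8 (0.50 ± 0.20, adjusted p = 0.0846). The list had medians of -0.13 and -0.16 in D425 and 0.16 and 0.24 in D458.

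Of 12 cilium and trafficking proteins, 1 rose and 1 fell with each hairpin in D425. In D458, 1 rose and 2 fell with hairpin 7, and 2 fell with hairpin 8. Medians were -0.03 and -0.04 in D425 and 0.01 and -0.04 in D458. EVC, a cilium protein that relays the SMO signal, moved in opposite directions in the lines. It rose in D425 with hairpin 6 (0.40 ± 0.08, adjusted p = 0.00427) and hairpin 8 (0.47 ± 0.08, adjusted p = 0.000962). In D458 it fell by 0.57 with hairpin 7 (SE 0.09, adjusted p = 0.000504) and by 0.39 with hairpin 8 (SE 0.09, adjusted p = 0.00584), and the difference in the hairpin 8 effect was -0.86 ± 0.12 (adjusted p = 0.000437).

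INPP5E, a phosphatase that sets the lipid make-up of the cilium, fell in D425 by 0.74 with hairpin 6 (SE 0.14, adjusted p = 0.00202) and by 0.89 with hairpin 8 (SE 0.14, adjusted p = 0.000363). It also lies on chromosome 9. TULP3, which carries receptors into the cilium, fell in D458 by 0.27 with hairpin 7 (SE 0.08, adjusted p = 0.0307) and by 0.30 with hairpin 8 (SE 0.08, adjusted p = 0.0189).

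Of 17 kinases and ubiquitin ligase parts that act on SMO or GLI proteins, 1 to 2 rose and 2 to 3 fell in each comparison. Of all genes, 14.1% to 23.2% were called per comparison. ADRBK2, a receptor kinase of the family that phosphorylates SMO, rose in D425 with hairpin 6 (0.58 ± 0.15, adjusted p = 0.0176) and hairpin 8 (0.68 ± 0.15, adjusted p = 0.0054). It fell in D458 by 0.64 and 0.58 with hairpins 7 and 8 (adjusted p = 0.00863 and 0.0135), and the difference in the hairpin 8 effect was -1.26 ± 0.22 (adjusted p = 0.00192). ITCH, a ubiquitin ligase that targets GLI1, fell in D425 by 0.32 and 0.24 with hairpins 6 and 8 (adjusted p = 0.00905 and 0.031) and in D458 by 0.23 with hairpin 7 (adjusted p = 0.0392). CSNK1D, a casein kinase that phosphorylates GLI proteins, fell in D425 by 0.29 and 0.30 with hairpins 6 and 8 (adjusted p = 0.024 and 0.0166). The median change of the list was -0.12 and -0.09 in D425 and -0.06 and -0.04 in D458.

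Of 17 genes widely used as targets of GLI factors, 6 passed the filter. In D425, 3 of 6 rose with hairpin 6, and 4 rose and 1 fell with hairpin 8, beside 14.1% and 21.7% of all genes called. In D458, 0 of 6 were called with either hairpin by edgeR or DESeq2, and 1 with hairpin 7 and 0 with hairpin 8 had an unadjusted p under 0.05, beside 22.6% and 23.2% of all genes called. By the test of the difference itself, the hairpin 8 effect differed between the lines for 1 of the 6, CCND2, beside 11.8% of all genes. Its effect, not its level, was the lower one in D458 (adjusted p = 0.0258). The size of that difference cannot be given, because CCND2 had 2 counts in D425 controls. Medians were 0.80 and 0.78 in D425 and 0.11 and -0.10 in D458. The medians and the rises with hairpin 8 in D425 include CCND2 and MYCN, which had 2 and 7 counts in D425 controls. MYCN had 46 counts with hairpin 8 and 31 with hairpin 6 in D425, and at most 9 in any D458 group. MYCN passed the filter through the libraries where it was high. Its call is thus no even match for the share of all genes. HES1, a transcriptional repressor better known as a Notch target, averaged 3.09 CPM with hairpin 6 and 3.34 CPM with hairpin 8 in D425, against 1.42 CPM in controls (1.13 ± 0.34, adjusted p = 0.036, and 1.24 ± 0.34, adjusted p = 0.0166). In D458 HES1 averaged 2.37 CPM with hairpin 7 and 2.24 CPM with hairpin 8, against 1.38 CPM in controls, and was not called. SNAI1, a repressor of epithelial genes, rose in D425 by 0.48 ± 0.10 (adjusted p = 0.00357) and 0.31 ± 0.10 (adjusted p = 0.0298) with hairpins 6 and 8. FOXM1 and JAG2 had lower means with the hairpins in D425. FOXM1 averaged 210 and 187 CPM with hairpins 6 and 8, against 262 CPM in controls. JAG2 averaged 188 and 161 CPM, against 199 CPM in controls. CCND2, a G1 cyclin, had 29 counts with hairpin 6 and 35 with hairpin 8 in D425, against 2 in controls, and averaged 189 CPM with hairpin 7 and 187 CPM with hairpin 8 in D458, against 179 CPM in controls.

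Over the 18 libraries, the genes whose log2 CPM followed GLI2 most closely were DOK6, an adaptor of receptor tyrosine kinases (r = 0.987), RBPMS, an RNA-binding protein (r = 0.986), and CEP170B, a relative of the centrosome protein CEP170 (r = 0.984). For SMO they were the ceramide kinase CERK (r = 0.982), the kinase MAP3K8 (r = 0.979) and the autophagy receptor CALCOCO2 (r = 0.978). All 6 of these genes rose in D458 with both hairpins, with DOK6 the highest (3.43 ± 0.55 with hairpin 7, adjusted p = 0.000882, and 3.21 ± 0.55 with hairpin 8, adjusted p = 0.00136). For GLI3 they were WIPF2, a partner of WASP proteins (r = 0.969), AP2B1, a clathrin adaptor subunit (r = 0.966), and EIF4EBP2, a repressor of translation initiation (r = 0.962), which rose in D425 with both hairpins by 0.27 to 0.73. EIF4EBP2 also rose in D458 with hairpin 8 (0.24 ± 0.07, adjusted p = 0.0225). For PTCH1 they were the zinc finger gene ZNF507 (r = 0.911), CKS2, a subunit of cyclin-dependent kinases (r = 0.905), and the proline-rich PRR12 (r = 0.887). CKS2 fell in D425 by 0.54 with hairpin 6 and by 0.79 with hairpin 8 (adjusted p = 0.00994 and 0.000507), and in D458 by 0.36 with hairpin 8 (adjusted p = 0.0483). ZNF507 fell in D425 by 0.39 and 0.41 with hairpins 6 and 8 (adjusted p = 0.0161 and 0.00937), and PRR12 by 0.28 with hairpin 8 (adjusted p = 0.0405). The difference between the lines enters all of these values, and GLI2 and SMO were alike in the same way (r = 0.97 over 18 libraries). These genes were picked for their likeness over the same 18 libraries in which their changes were read. Changes that follow those of GLI2, SMO, GLI3 or PTCH1 come with that choice and are no separate evidence.

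Some genes of fibroblasts rose with the hairpins beside the Hedgehog genes. The sum of COL1A1, COL1A2, COL3A1, DCN, LUM and PDGFRB was 42.6 to 85.2 CPM with hairpin 6 and 50.9 to 95.6 CPM with hairpin 8 in D425, against 18.5 to 33.1 CPM in controls. In D458 it was 34.3 to 55.6 CPM with hairpin 7 and 32.2 to 60.9 CPM with hairpin 8, against 6.89 to 8.44 CPM in controls. Of the 6 genes, 5 were tested, of which 2 were higher with each hairpin in D425 (COL1A1 and LUM) and 4 with each in D458 (COL1A1, DCN, LUM and PDGFRB), and COL3A1 was at 0 in D458 controls. Their part in the rises of GLI2, GLI3 and SMO was not tested. In bulk RNA, a change in the share of a cell type and a change in RNA per cell cannot be told apart. Blood and immune markers (PTPRC, CD68 and CD3E) summed to 0.334 to 3.41 CPM, and astrocyte markers (GFAP and AQP4) to 0.0417 to 1.27 CPM, in any library.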

How the data were processed

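PolyA RNA of D425 and D458 cells was read from 18 libraries in 6 groups of 3 biological replicates. The table deposited by the authors holds whole-number read counts per gene symbol, without normalization. The submitters' processing notes name the builds hg19 and GRCh37 and the tools TopHat2, Bowtie2 and HTSeq, with bcl2fastq, Picard, SAMtools and FastQC. Libraries were strand-specific, per the labels' protocols, and the strand setting of the counting is not given in the sources used here. Library totals were 21260369 to 31552051, and error of a count covers counting only.

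From these counts, genes were filtered with filterByExpr (minimum count 10, 14850 of 25369 kept), scaled by TMM, and tested with a robust edgeR quasi-likelihood fit over all libraries with 1 coefficient per group (R 4.3.3, edgeR 4.0.16, limma 3.58.1). DESeq2 1.42.0, another scaling, other filters, a fit per line, a replicate block and leaving out libraries were alternatives. The script was tested on simulated data. The floor for a fold against 0 was 3 counts per library. Transcript lengths and overlaps came from a GENCODE annotation of GRCh38, matched by symbol. The order of neighbours came from RefSeq gene positions, matched by symbol or synonym (14507 of 14850 genes), and promoters from RefSeq on GRCh38.p14. No coordinates were converted.

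The 9 genes and the lists were chosen with earlier results of these data known. From each pathway list, up to 3 called genes with the smallest adjusted p were named, and for each Hedgehog gene called with a hairpin the 3 genes of highest Pearson correlation of log2 CPM (prior count 2, mean of at least 1 CPM). CEP170, CFAP44, ARHGAP9, HHIP-AS1, WDR52, MYCN, FOXM1, JAG2, ligand and marker genes are named outside that rule.

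Libraries with the same replicate number carried the same code in the labels of every group, and replicate 1 an earlier date than 2 and 3, so numbers were taken to pair libraries. After removal of group means, same-numbered libraries correlated at 0.08 to 0.61 in D425 and 0.13 to 0.70 in D458, and others at means of -0.14 and -0.17. In every group but D425 with hairpin 8, the counts of replicates 2 and 3 lay closer to each other than to replicate 1. P-values measure the spread between these replicates, and those without replicate 1 rest on libraries of the same date.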

Additional observations from a re-analysis of the deposited data

Results flagged for a closer look

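The test of a difference between the lines in the hairpin 8 effect passed for 3 of the 9 Hedgehog genes, beside 11.8% of all genes. Without replicate 2 it did so for 0 of the 9 (0.498% of all genes), and without replicate 3 for 1 of the 9, GLI2 (0.681% of all genes). For GLI2 the effect in D458 minus that in D425 was 4.02 ± 0.61 on the log2 scale (adjusted p = 0.000902). For SMO it was 1.07 ± 0.27 (adjusted p = 0.0171). For GLI3 the fitted value was -5.46 (adjusted p = 0.0164), which is no measured size, since D458 had 2 counts with hairpin 8 and 4 in controls. Hairpin 8 was the only EYA2 hairpin used in both lines, and EYA2 fell by 1.79 with it in D458 and by 0.98 in D425.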

How the results depend on the processing

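Of 697 recomputed values for single Hedgehog genes, 632 kept their direction and side of the threshold. The number of Hedgehog genes called with hairpin 6 in D425 was 1, but 2 with DESeq2 (PTCH1 added) and 3 with the replicate block (GLI2 and PTCH1 added), and 1 to 4 when libraries were left out. Calls over all genes rose too, to 17.1% with DESeq2, 27.8% with the block and 23.3% without replicate 1, against 14.1%. With hairpin 8 in D425 it was 2, and 1 to 4 when libraries were left out, where all genes gave 21.7%, and 28.1% without replicate 1, 5.83% without replicate 2 and 3.43% without replicate 3. Both numbers reached 4 without replicate 1. For the difference between lines it was 3, and 0 to 3, with 0 without replicate 2 and 1, GLI2, without replicate 3, where calls over all genes fell to 0.498% and 0.681%, against 11.8%. For the control groups it was 5, and 3 with a filter at a mean of 1 CPM, which leaves HHIP and GAS1 untested. The replicate block also brought BOC below the threshold in D458. Among the Hedgehog genes it changed no call beyond those given for GLI2, PTCH1 and BOC.

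Direction turned for some changes that were not called when libraries were left out. The ranges were, for GLI1, -0.33 to 0.13 with hairpin 6 in D425, -0.13 to 0.65 with hairpin 8 in D425, -0.09 to 0.09 with hairpin 7 in D458, -0.59 to 0.19 between lines and -0.05 to 0.27 between controls. For SMO in D425 they were -0.02 to 0.16 with hairpin 6 and -0.16 to 0.05 with hairpin 8. For BOC they were -0.09 to 0.36 with hairpin 6 in D425 and -0.11 to 0.99 between lines. For PTCH1 with hairpin 7 in D458 it was -0.18 to 0.07. For SUFU they were -0.14 to 0.09 with hairpin 7 in D458 (0.02 with the filter at 1 CPM), -0.17 to 0.11 between lines and -0.18 to 0.01 between controls. The cause was not tested. The low counts of GLI3 and HHIP in D458 and of GAS1 in D425 limit what can be read there.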

Other observations

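Genes used as markers of the SHH subgroup of medulloblastoma, read beside the Hedgehog genes themselves, were summed per library (ATOH1, SFRP1, GAB1, PDLIM3 and EYA1). The sum was 136 to 194 CPM with hairpin 7 and 126 to 189 CPM with hairpin 8 in D458, against 82 to 130 CPM in controls. In D425 it was 47.8 to 50.9 CPM with hairpin 6 and 52.9 to 55.7 CPM with hairpin 8, against 39.2 to 42.5 CPM in controls. Of the 3 that were tested, GAB1, an adaptor of growth factor receptors, rose in D458 (0.54 ± 0.17 with hairpin 7, adjusted p = 0.0305, and 0.53 ± 0.17 with hairpin 8, adjusted p = 0.0303), as did PDLIM3, an actin-associated protein (0.87 ± 0.24, adjusted p = 0.0165, and 0.70 ± 0.24, adjusted p = 0.0421). EYA1, a paralogue of EYA2, averaged 40 CPM with hairpin 7 and 36.2 CPM with hairpin 8 in D458, against 27.8 CPM in controls, and did not pass (adjusted p = 0.058 and 0.159). In D425, 0 of the 3 passed by edgeR, where 2 had an unadjusted p under 0.05 with each hairpin and DESeq2 called 0 with hairpin 6 and 1 with hairpin 8. ATOH1 and SFRP1, which were not tested, had at most 7 counts per group in both lines. Over all genes, 14.1% and 21.7% were called with hairpins 6 and 8 in D425. In D458 the shares were 22.6% and 23.2% with hairpins 7 and 8.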
